A study of Mus musculus with 29 samples.

Results

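Regulatory T (Treg) cultures that carried guide RNAs against both Smad2 and Smad3 (sgSmad2/3) were compared with Treg cultures that carried the guide against Smad2 alone (sgSmad2), so that the guide against Smad3 was what the 2 groups did not share. Each group had 2 RNA libraries, which makes 4 of the 29 samples of the series. Genes were included when they reached 5 or more in at least 2 of these 4 libraries, which left 10208 of 55421 genes. The levels are CPM (reads of a gene per 1000000 counted reads of the library), in whole numbers as the authors deposited them.

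All 4 cultures came from naive CD4 T cells of C57BL/6 spleens, kept for 5 days in IL-2 (15 ng/ml) plus TGF-beta of human origin (10 ng/ml). The labels give no age or number of mice, no guide sequence, no delivery of the guides or source of Cas9, and no word on whether replicates were separate cultures. A p here is therefore set against the variation among these libraries, some or all of which could be technical. The same experiment also held 2 Treg libraries with no guide named in their labels and 2 with the guide against Smad3 alone (sgSmad3). All of these groups received TGF-beta. RNA was read near the 3′ end of polyadenylated transcripts with the QuantSeq 3′ FWD kit.

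TGF-beta binds a pair of receptor kinases, which phosphorylate Smad2 and Smad3. These proteins join Smad4, enter the nucleus and act there with other transcription factors. Smad3 and Smad4 bind the short DNA word CAGAC and GC-rich words such as GGCGCC, whereas the main form of Smad2 has an insert that hinders direct DNA binding. In naive CD4 T cells TGF-beta with IL-2 induces Foxp3, the transcription factor that defines Treg cells, and TGF-beta restrains cytotoxic genes. The series asks how Smad2 and Smad3 act on Acsl6, which encodes a long-chain acyl-CoA synthetase.

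The 4 libraries held between 1310993 and 1512629 reads, and 0 reads leave room for levels up to 1.98 to 2.29 CPM (3 reads, counting error only). The first sgSmad2 library and the first no-guide library stood apart from the others of the experiment, with 16641 and 16547 genes above 0 against 14298 to 15499. Across genes, the first sgSmad2 library correlated more closely with the first no-guide library (r = 0.973) than with the second sgSmad2 library (r = 0.959), while the sgSmad2/3 libraries gave r = 0.971. All 12 CD4 T cell markers were included, with summed levels of 4538 and 5650 CPM in sgSmad2 and 5861 and 5953 CPM in sgSmad2/3.

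The transcripts of the targeted genes were read first. Smad3 stood at 44 and 56 CPM in sgSmad2 and at 41 and 37 CPM in sgSmad2/3. The 2 groups did not overlap, yet the log2 difference of -0.34 (SE 0.23) did not pass (limma adjusted p = 0.794). Smad3 was at 30 and 34 CPM with no guide and at 26 and 25 CPM in sgSmad3. Smad2, targeted in both groups, was at 12 and 24 CPM in sgSmad2 and at 13 and 18 CPM in sgSmad2/3, against 37 and 29 CPM with no guide. A tag at the 3′ end does not read an edit elsewhere in the gene, so these levels do not check the labels.

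With the Smad3 guide added, the helix-loop-helix inhibitor Id2 and the cytotoxic protease Gzmb rose, and 8 genes fell: Cd40, Ncmap, Ubash3b, Nt5e, Endod1, Fchsd2, Diaph2 and Pmepa1. These 10 genes were 0.098% of those tested (2 higher, 0.0196%, and 8 lower, 0.0784%). Among them, 9 differed by 2-fold or more. The libraries of the 2 groups did not overlap for any of the 10. Of all genes tested, 17.8% did not overlap and were higher, and 15.5% did not overlap and were lower. Genes with a small p are likely to be among these. The test was limma on log2(CPM + 1) across all 8 libraries of the experiment, with Benjamini-Hochberg adjustment over 10208 genes and a threshold of 0.05. Fold changes are on the log2(CPM + 1) scale, where those of low genes come out too small. At an unadjusted p under 0.05 there were 720 genes (7.05%), 346 higher and 374 lower, where chance alone would give 510. This count was not stable either. It was 591 when only the 4 libraries were fitted and 888 with the replicate number as a block. Leaving out a library could move it below 510 or, for the second sgSmad2 library, far above 720.

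The count of 10 depended on the libraries and on the fit. It was 0 without either sgSmad2/3 library, 2 without the first and 1 without the second sgSmad2 library, 5 without either no-guide library, 6 without either sgSmad3 library, and 0 when only the 4 libraries were fitted, without the intensity trend, or with genes at lower levels let in, while a fit with the replicate number as a block called 28. All 10 genes kept their direction in all 20 alternatives run. Since their libraries did not overlap between the groups, leaving out a library could not turn it, so this adds no support.

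**Figure D1:**
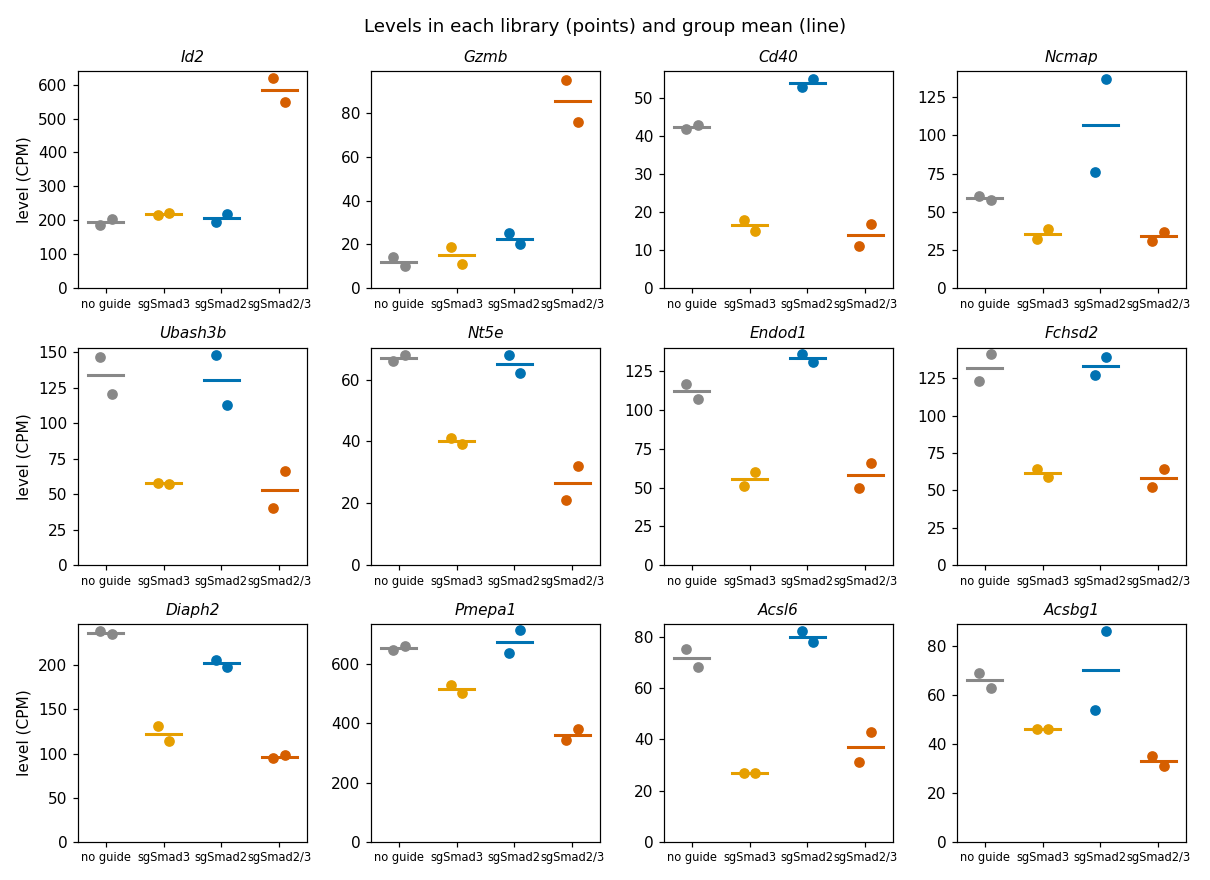
Level in CPM (y axis, from 0) in each library (points, 2 per group) and group mean (line) for the 10 genes that passed the threshold and for Acsl6 and Acsbg1, which did not. Id2 and Gzmb are high only in the sgSmad2/3 libraries, while most of the genes that fell are at similar low levels in sgSmad3 and sgSmad2/3.

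The plot of levels by group shows that the libraries without the Smad3 guide (no guide and sgSmad2) and those with it (sgSmad3 and sgSmad2/3) did not overlap for any of the 8 genes that fell, nor for Acsl6 or Acsbg1. For Id2 and Gzmb the sgSmad2/3 libraries were above all the other 6. Gene positions below are those of RefSeq on GRCm38.p6, the assembly that mm10 is built on.

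The promoters of 3 genes that passed, and of Acsl6, which did not, are printed from RefSeq, each running from 250 bases before to 50 bases after a start of transcription, 5′ to 3′ on the strand of the gene. Capitals mark the words that were searched on both strands. They are CAGAC, which reads GTCTG on the other strand, and the GC-rich word GGCGCC. Id2 and Fchsd2 are shown because 1 rose and 1 fell and both hold GGCGCC, Nt5e because it fell and holds CAGAC at 2 places, and Acsl6, with the most upstream of the 3 starts in the table, because the series asks about it. Id2 is at chr12:25096043-25096342 (minus strand), Fchsd2 at chr7:101108525-101108824 (plus), Nt5e at chr9:88327359-88327658 (plus) and Acsl6 at chr11:54303574-54303873 (plus), all GRCm38.p6.
Id2: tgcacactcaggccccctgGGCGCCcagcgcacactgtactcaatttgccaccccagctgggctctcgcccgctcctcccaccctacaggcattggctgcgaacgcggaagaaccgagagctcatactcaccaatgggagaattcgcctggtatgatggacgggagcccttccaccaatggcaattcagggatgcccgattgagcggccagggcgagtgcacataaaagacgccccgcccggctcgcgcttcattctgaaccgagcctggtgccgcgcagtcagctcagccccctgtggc
Fchsd2: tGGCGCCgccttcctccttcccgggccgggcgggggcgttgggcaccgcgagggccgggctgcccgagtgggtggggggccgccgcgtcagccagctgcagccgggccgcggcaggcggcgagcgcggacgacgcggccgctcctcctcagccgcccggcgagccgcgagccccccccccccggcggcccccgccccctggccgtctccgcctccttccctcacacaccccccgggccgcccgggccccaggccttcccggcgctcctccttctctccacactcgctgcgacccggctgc
Nt5e: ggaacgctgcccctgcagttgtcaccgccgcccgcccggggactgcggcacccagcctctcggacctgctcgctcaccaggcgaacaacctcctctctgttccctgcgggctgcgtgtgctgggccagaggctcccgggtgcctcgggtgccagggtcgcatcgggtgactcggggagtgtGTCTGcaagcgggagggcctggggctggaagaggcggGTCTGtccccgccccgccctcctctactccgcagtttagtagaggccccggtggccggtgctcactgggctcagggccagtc
Acsl6: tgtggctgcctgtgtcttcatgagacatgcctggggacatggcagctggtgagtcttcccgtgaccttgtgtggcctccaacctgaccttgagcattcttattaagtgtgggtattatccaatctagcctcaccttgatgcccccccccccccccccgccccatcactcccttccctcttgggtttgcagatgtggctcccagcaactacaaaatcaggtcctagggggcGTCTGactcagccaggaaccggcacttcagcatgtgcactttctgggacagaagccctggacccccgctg

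Of the 10 genes, 7 had a promoter in the RefSeq table, with 9 promoters in all, since Ncmap and Ubash3b have 2 starts each. CAGAC stood in 3 of the 9 promoters (2 of Ncmap and 1 of Nt5e), against 49.6% of the 32851 promoters of that length that were searched. Promoters on chromosome 18 were left out of the search, here and in the shares of all promoters below. The longer CAGACA stood in 2 of the 9 (1 each of Ncmap and Nt5e, 21.0% of all promoters), GGCGCC in 2 (Id2 and Fchsd2, 11.9% of all) and the palindrome GTCTAGAC in 0 (0.213% of all). CAGACA contains CAGAC, so these 2 counts overlap. A match is a description of these letters only.

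Id2 encodes an inhibitor of DNA binding that pairs with E proteins, the helix-loop-helix transcription factors of lymphocytes, and keeps them off DNA. Its gene lies at chr12:25093799-25096092. Id2 was at 196 and 219 CPM in sgSmad2 and at 619 and 548 CPM in sgSmad2/3. The no-guide libraries (185 and 204 CPM) and the sgSmad3 libraries (215 and 220 CPM) were within the range of sgSmad2 or close to it. Id2 rose 2.80-fold (log2 difference 1.49, SE 0.155, limma adjusted p = 0.000576). Without the first or the second sgSmad2 library the limma adjusted p was 0.0163 and 0.00714, and without the first or the second sgSmad2/3 library it was 0.265 and 0.063.

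The 2 related genes Id1 and Id3 were also higher in both sgSmad2/3 libraries and did not pass. Id1 was at 11 and 11 CPM in sgSmad2 and at 32 and 37 CPM in sgSmad2/3 (log2 difference 1.56, limma adjusted p = 0.172). Id3 was at 116 and 143 CPM in sgSmad2 and at 232 and 223 CPM in sgSmad2/3 (log2 difference 0.82, limma adjusted p = 0.172). The E protein genes themselves lay close together in the 2 groups: Tcf3 was at 60 and 76 CPM against 82 and 72 CPM, and Tcf12 at 149 and 177 CPM against 153 and 144 CPM, sgSmad2 first. Tcf3 and Tcf12 were named after their values were seen.

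Gzmb encodes granzyme B, a serine protease of cytotoxic granules, and lies at chr14:56258836-56262334. Its levels were 25 and 20 CPM in sgSmad2 and 95 and 76 CPM in sgSmad2/3, against 14 and 10 CPM with no guide and 19 and 11 CPM in sgSmad3. Gzmb rose 3.68-fold (log2 difference 1.88, SE 0.302, limma adjusted p = 0.0225). Of the 8 granzyme and cytotoxic genes that could be tested, Gzmb alone passed, and the median log2 difference of the list was -0.01. Ctsw, a protease of cytotoxic cells, was at 136 and 297 CPM in sgSmad2 and at 137 and 106 CPM in sgSmad2/3 (-0.73, limma adjusted p = 0.626). Perforin (Prf1) was at 22 and 7 CPM in sgSmad2 and at 5 and 8 CPM in sgSmad2/3 (-0.88, limma adjusted p = 0.773). In both genes the groups overlapped. The high level was that of the second sgSmad2 library for Ctsw and of the first for Prf1.

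Markers of CD8, NK and gamma-delta T cells summed to 259 and 340 CPM in sgSmad2 and to 298 and 255 CPM in sgSmad2/3, with 10 of 13 above 0 in any library of the experiment. Most of these sums came from constant genes of the gamma chain of the T cell receptor, here with sgSmad2 first. Tcrg-C2 was at 126 and 174 CPM against 139 and 120 CPM, and Tcrg-C1 at 50 and 79 CPM against 76 and 72 CPM. Tcrg-C4 was at 64 and 74 CPM against 63 and 48 CPM, without overlap (-0.32, limma adjusted p = 0.793). None of the 5 markers tested passed. Ncr1 and Klre1 were at 0 in all 4 libraries, Cd8a was at 2 and 1 CPM in both groups, and Klrb1c was at 1 CPM or less. In bulk RNA, more cells with a transcript and more of that transcript per cell cannot be told apart.

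Among the genes that fell, 3 act at the cell surface or on the TGF-beta pathway itself. Cd40, a TNF receptor family member best known on antigen-presenting cells (chr2:165055614-165071654), was at 53 and 55 CPM in sgSmad2 and at 11 and 17 CPM in sgSmad2/3. Cd40 fell 3.74-fold (log2 difference -1.90, SE 0.264, limma adjusted p = 0.0118). The levels were 42 and 43 CPM with no guide and 18 and 15 CPM in sgSmad3, so both groups with the Smad3 guide were low. B cell markers summed to 91 and 98 CPM in sgSmad2 and to 127 and 95 CPM in sgSmad2/3, with Cd79a and Ms4a1 at 0 in all 4 libraries. Most of these sums was Ighm, at 71 and 81 CPM in sgSmad2 and at 86 and 60 CPM in sgSmad2/3. H2-Ab1, an MHC class II gene of antigen-presenting cells, was at 12 and 13 CPM in sgSmad2 and at 33 and 29 CPM in sgSmad2/3 (1.24, limma adjusted p = 0.182). The markers H2-Aa, H2-Eb1 and Cd74 of the same list did not rise with it and were at 3 CPM or less in all 4 libraries.

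Nt5e encodes CD73, the surface enzyme of Treg cells that makes adenosine from AMP (chr9:88327609-88372089). It was at 68 and 62 CPM in sgSmad2 and at 21 and 32 CPM in sgSmad2/3, and fell 2.45-fold (log2 difference -1.29, SE 0.229, limma adjusted p = 0.0393). The levels were 66 and 68 CPM with no guide and 41 and 39 CPM in sgSmad3, between the other 2 levels. Entpd1 encodes CD39, which acts before CD73 in making adenosine, and was at 19 and 19 CPM in sgSmad2 and at 14 and 17 CPM in sgSmad2/3. The difference of -0.28 in Entpd1, named after its values were seen, did not pass (limma adjusted p = 0.898).

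Pmepa1 encodes a membrane protein that binds the receptor-regulated Smads and damps TGF-beta signalling (chr2:173224458-173276731). It was at 637 and 716 CPM in sgSmad2 and at 343 and 381 CPM in sgSmad2/3. Pmepa1 fell 1.87-fold (log2 difference -0.90, SE 0.149, limma adjusted p = 0.0232), the smallest change of the 10. With no guide it was at 647 and 662 CPM and in sgSmad3 at 529 and 504 CPM, so the sgSmad2/3 libraries were below all the other 6.

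The other 5 genes that fell work inside the cell or are less well known in T cells. Ubash3b encodes a phosphatase that restrains T cell receptor signalling (chr9:41010760-41161692) and was at 148 and 113 CPM in sgSmad2 and at 40 and 66 CPM in sgSmad2/3 (log2 difference -1.31, SE 0.231, limma adjusted p = 0.0393). Diaph2, a formin that elongates actin filaments (chrX:129749668-130465834), was at 206 and 198 CPM and at 95 and 98 CPM (-1.06, SE 0.161, limma adjusted p = 0.0225). Fchsd2, a membrane-bending adaptor of endocytosis (chr7:101108499-101284405), was at 127 and 139 CPM and at 52 and 64 CPM (-1.19, SE 0.185, limma adjusted p = 0.0225). In all 3 the sgSmad3 libraries were close to the sgSmad2/3 libraries: 58 and 57 CPM for Ubash3b, 131 and 114 CPM for Diaph2, and 64 and 59 CPM for Fchsd2.

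Endod1, named for an endonuclease domain (chr9:14353990-14381242), was at 136 and 131 CPM in sgSmad2 and at 50 and 66 CPM in sgSmad2/3 (-1.20, SE 0.194, limma adjusted p = 0.0225). Ncmap, known as a protein of non-compact myelin (chr4:135369576-135398240), was at 76 and 137 CPM and at 31 and 37 CPM (-1.56, SE 0.255, limma adjusted p = 0.0225). By ratio, the 2 sgSmad2 libraries differed more in Ncmap than in any other of the 10 genes, and the log2 difference was -1.14 without the second of them and -1.99 without the first.

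**Figure D2:**
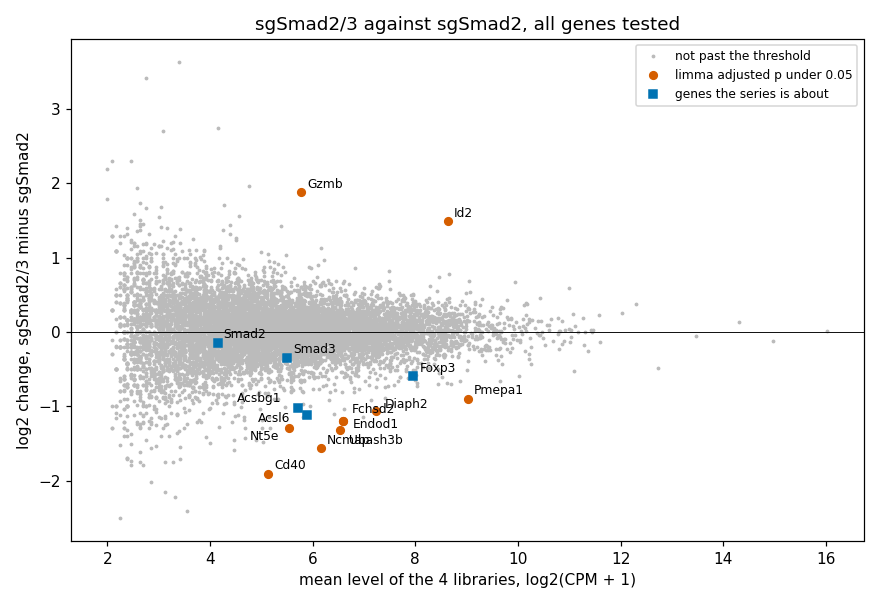
Log2 difference of sgSmad2/3 minus sgSmad2 (y axis) against the mean level of the 4 libraries as log2(CPM + 1) (x axis) for all 10208 genes tested. The 10 genes that passed are orange, and Smad2, Smad3, Foxp3, Acsl6 and Acsbg1, none of which passed, are blue.

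Differences larger than those of the 10 genes appear in the plot of change against level mostly at low mean levels. Since only Id2 and Gzmb passed in the upward direction, the next genes by p are given as values that did not pass. Tgm2 (transglutaminase 2) was at 6 and 16 CPM in sgSmad2 and at 40 and 43 CPM in sgSmad2/3 (1.96, limma adjusted p = 0.150), and Itgb3 (the beta 3 integrin) was at 34 and 56 CPM and at 88 and 106 CPM (1.13, limma adjusted p = 0.150). Anxa2 (annexin A2) was at 257 and 342 CPM and at 476 and 544 CPM (0.78, limma adjusted p = 0.150). Dapl1 was at 46 and 48 CPM and at 79 and 99 CPM (0.90, limma adjusted p = 0.172). All 4 were higher in both sgSmad2/3 libraries than in both sgSmad2 libraries.

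The remaining 2 of these genes are markers of other cells. Hba-a1, an alpha globin gene of red cells whose reads cannot be told with certainty from those of Hba-a2, was at 22 and 21 CPM in sgSmad2 and at 50 and 70 CPM in sgSmad2/3 (1.42, limma adjusted p = 0.0506). S100a9, a gene of neutrophils and monocytes, was at 0 and 1 CPM and at 10 and 27 CPM. Its sgSmad2 levels were under the 3-read limit and it entered the test through the sgSmad2/3 libraries alone, so no fold is given. Red cell and platelet markers summed to 27 and 27 CPM in sgSmad2 and to 73 and 149 CPM in sgSmad2/3, and myeloid markers to 10 and 12 CPM and to 27 and 75 CPM. Of these, 8 of 11 and 15 of 19 were above 0 in any library of the experiment, while Alas2, Cd14 and Itgam were at 0 in all 4 libraries. The part of other cells in the differences between the groups was not tested.

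The TGF-beta pathway itself is described by lists. These and the other gene lists were chosen with earlier results of these data known, so their counts and medians are descriptions only. None of the 9 Smads and partners passed, and the median log2 difference was -0.14, against 0.02 over all genes tested. Smad4, the common partner, was at 75 and 86 CPM in sgSmad2 and at 72 and 100 CPM in sgSmad2/3. Smad1, which serves the BMP branch, was at 26 and 27 CPM and at 21 and 19 CPM (-0.39, limma adjusted p = 0.802). The median lay between -0.38 and 0.02 over the pairs of libraries. None of the 15 ligands, receptors and activators passed either (median -0.12, between -0.37 and 0.15 over the pairs). At an unadjusted p under 0.05, 2 of these 15 were higher (background 3.39%) and 2 lower (background 3.66%). The lower ones were Bmpr2, a BMP receptor, at 38 and 44 CPM against 18 and 21 CPM (-1.03, limma adjusted p = 0.172), and Furin, the convertase that cleaves the TGF-beta precursor, at 198 and 176 CPM against 91 and 136 CPM (-0.74, limma adjusted p = 0.367). The higher ones were the co-receptor Tgfbr3, at 16 and 18 CPM against 33 and 24 CPM (0.70, limma adjusted p = 0.621), and Nrros, which holds latent TGF-beta, at 87 and 71 CPM against 112 and 121 CPM (0.56, limma adjusted p = 0.508). The receptor kinases stood at 34 and 40 CPM against 31 and 34 CPM (Tgfbr1) and at 70 and 66 CPM against 54 and 49 CPM (Tgfbr2). In each of these pairs sgSmad2 is given first.

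Regulators of the TGF-beta signal, listed as feedback regulators, had 1 of 14 members past the threshold (Pmepa1). Their median was -0.34 (-0.59 to -0.12 over the pairs of libraries). At an unadjusted p under 0.05, 4 were lower (3.66% of all genes tested) and 0 higher (3.39% of all). In 5 both sgSmad2/3 libraries were below both sgSmad2 libraries (background 15.5%), and in 0 both were above (background 17.8%). Skil, a corepressor that binds Smads, was at 297 and 320 CPM in sgSmad2 and at 201 and 192 CPM in sgSmad2/3 (-0.65, limma adjusted p = 0.276). Smad7, the inhibitory Smad, overlapped at 132 and 175 CPM against 124 and 134 CPM (-0.24, limma adjusted p = 0.849). Smurf2, Ldlrad4, Smad7, Skil, Ski and Pmepa1 are also in the list of TGF-beta target genes below, so the medians of both lists are not separate.

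Of 24 TGF-beta target genes tested, 1 rose (Id2) and 1 fell (Pmepa1), and the median was -0.38. At an unadjusted p under 0.05, 12 were lower (3.66% of all genes tested) and 3 higher (3.39% of all), the latter being Id1, Id2 and Id3. Since the list was chosen with earlier results of these data known, these counts describe its members and are not a test of it. Over the pairs of libraries the median lay between -0.51 and -0.22. Itgae, the alpha E integrin (CD103), was at 37 and 58 CPM in sgSmad2 and at 16 and 16 CPM in sgSmad2/3 (-1.48, limma adjusted p = 0.0522). Nlrp6, a sensor of the NOD-like family, was at 43 and 57 CPM and at 16 and 24 CPM (-1.29, limma adjusted p = 0.103), and Camk2n1, an inhibitor of CaM kinase II, was at 132 and 218 CPM and at 75 and 78 CPM (-1.14, limma adjusted p = 0.147). None of these 3 overlapped between the groups. The Skil, Nlrp6, Camk2n1, Smad4, Smad7, Nrros and TGF-beta receptor genes were named in addition to the rule for named genes, after their values were seen.

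Treg core genes had 1 of 22 members past the threshold, Nt5e (0.098% of all genes tested). At an unadjusted p under 0.05, 7 were lower (3.66% of all) and 2 higher (3.39% of all). The median was -0.22, between -0.42 and 0.07 over the pairs of libraries, and turned to 0.09 without the second sgSmad2 library. Foxp3 was at 214 and 393 CPM in sgSmad2 and at 189 and 195 CPM in sgSmad2/3 (-0.59, SE 0.27, limma adjusted p = 0.683). The 2 sgSmad2 libraries lay far apart, as did those with no guide (177 and 320 CPM). Ctla4, an inhibitory receptor, was at 40 and 44 CPM and at 22 and 25 CPM (-0.81, limma adjusted p = 0.416), while Il2ra (CD25) was at 1639 and 1897 CPM and at 1677 and 1779 CPM. Tnfrsf9 (4-1BB) was at 96 and 156 CPM and at 182 and 195 CPM (0.62, limma adjusted p = 0.588), so members differed in direction. Ctla4, Il2ra and Tnfrsf9 were named after their values were seen. Of 13 tissue Treg genes, Id2 and Gzmb rose (0.0196% of all genes tested) and 0 fell (0.0784% of all), with a median of -0.16. At an unadjusted p under 0.05, 4 of these 13 were lower (3.66% of all) and 2 higher (3.39% of all).

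Acsl6 (chr11:54303805-54364756) was at 82 and 78 CPM in sgSmad2 and at 31 and 43 CPM in sgSmad2/3. Both sgSmad2/3 libraries were below both sgSmad2 libraries, and the log2 difference of -1.11 (SE 0.216) missed the threshold (limma adjusted p = 0.0678). In sgSmad3 it was at 27 and 27 CPM, against 75 and 68 CPM with no guide. Acsbg1, the bubblegum acyl-CoA synthetase (chr9:54604886-54661885), was at 54 and 86 CPM and at 35 and 31 CPM (-1.03, limma adjusted p = 0.150). These 2 were the only members with an unadjusted p under 0.05 among the 11 acyl-CoA synthetases tested (7.05% of all genes tested). The median of the list was -0.03.

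**Figure D3:**
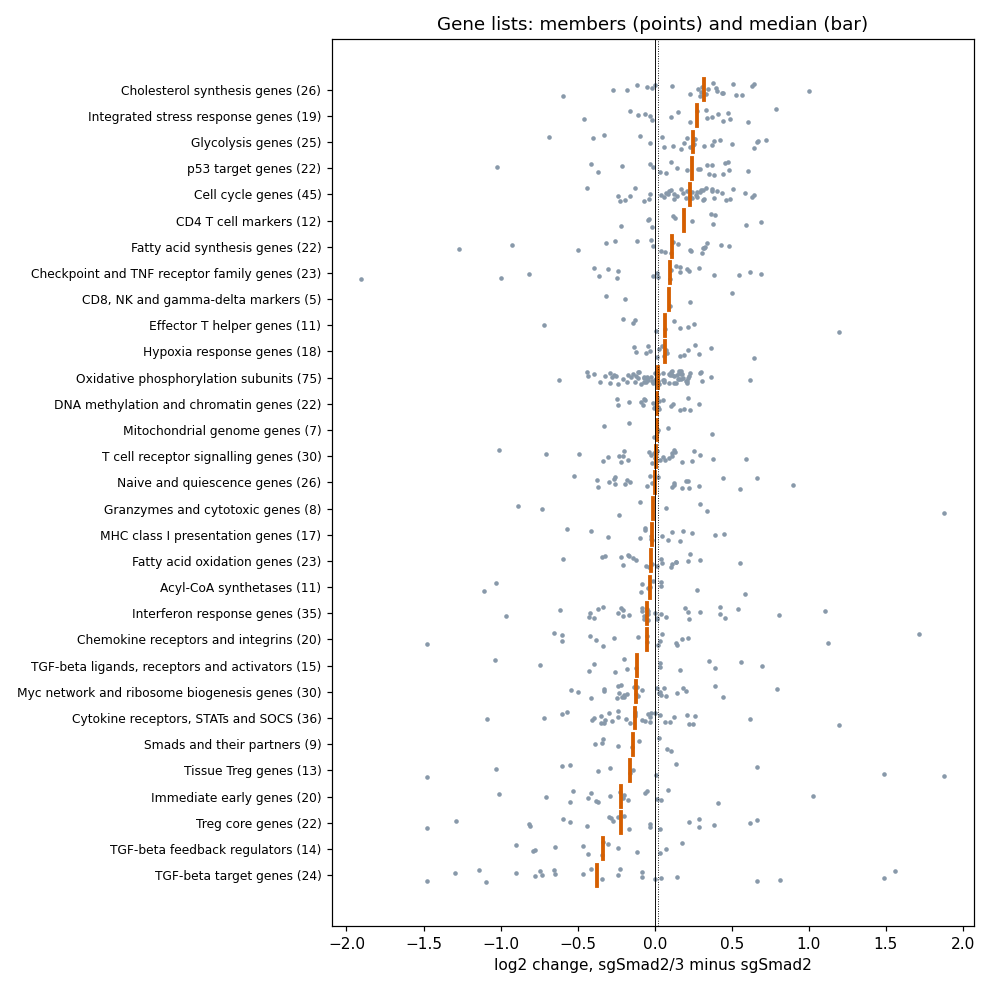
Log2 difference of sgSmad2/3 minus sgSmad2 (x axis) for the members (points) of the 31 gene lists with 5 or more genes tested, with each list's median as a bar and the number tested in brackets, and the median of all genes as a dotted line. TGF-beta target genes have the lowest median (-0.38) and cholesterol synthesis genes the highest (0.32). The lists were chosen with earlier results of these data known.

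The plot of gene lists orders them by their median, and outside the TGF-beta, Treg and cytotoxic lists only 1 further list held a member that passed: checkpoint and TNF receptor family genes, with Cd40 of 23 members. None of the 26 cholesterol synthesis genes passed, and 7 were higher (3.39% of all genes tested) and 0 lower (3.66% of all) at an unadjusted p under 0.05. The median was 0.32, and between 0.25 and 0.42 over the pairs of libraries. Hmgcs1, the synthase that makes HMG-CoA, was at 537 and 453 CPM in sgSmad2 and at 672 and 614 CPM in sgSmad2/3 (0.38, limma adjusted p = 0.626), and Tm7sf2, a sterol reductase, was at 6 and 7 CPM and at 15 and 13 CPM (limma adjusted p = 0.633). Both were higher in both sgSmad2/3 libraries than in both sgSmad2 libraries. With no guide Hmgcs1 was at 673 and 706 CPM, so the sgSmad2/3 libraries were not above that level, and in sgSmad3 it was at 553 and 497 CPM. Tm7sf2 was at 8 and 9 CPM with no guide and at 4 and 8 CPM in sgSmad3. In sgSmad3 against no guide the median of the cholesterol list was 0.02, against 0.04 over all genes tested.

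Of 25 glycolysis genes, 0 passed, and the median was 0.25 (0.13 to 0.35 over the pairs). At an unadjusted p under 0.05, 4 were higher (3.39% of all genes tested) and 1 lower (3.66% of all). The lower one, the enolase gene Eno3, was at 21 and 27 CPM in sgSmad2 and at 13 and 16 CPM in sgSmad2/3 (-0.69) and was named after its values were seen. Pkm (pyruvate kinase) was at 597 and 953 CPM in sgSmad2 and at 1179 and 1220 CPM in sgSmad2/3 (0.67, limma adjusted p = 0.541), and Slc2a3 (a glucose transporter) was at 105 and 140 CPM and at 200 and 181 CPM (0.65, limma adjusted p = 0.563). Of 45 cell cycle genes, 0 passed, 8 were higher (3.39% of all genes tested) and 0 lower (3.66% of all) at an unadjusted p under 0.05, and the median was 0.23 (0.16 to 0.22 over the pairs). Aurkb, a mitotic kinase, was at 45 and 50 CPM and at 65 and 84 CPM (0.63, limma adjusted p = 0.549), and Mcm2, of the replicative helicase, was at 127 and 161 CPM and at 196 and 199 CPM (0.46, limma adjusted p = 0.587).

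Oxidative phosphorylation had 0 of 75 subunits past the threshold and a median of 0.02. At an unadjusted p under 0.05, 1 was higher (3.39% of all genes tested) and 1 lower (3.66% of all). Fatty acid synthesis (22 genes, median 0.11) and fatty acid oxidation (23 genes, median -0.02) held 0 members past the threshold. So did T cell receptor signalling (30 genes, median 0.01), naive and quiescence genes (26, median 0.00), cytokine receptors with STATs and SOCS (36, median -0.13) and interferon response genes (35, median -0.05). Of 20 immediate early genes, which T cell stimulation induces, 0 passed and the median was -0.22, and between -0.49 and 0.04 over the pairs of libraries. Among these, Egr1 was at 63 and 52 CPM in sgSmad2 and at 21 and 37 CPM in sgSmad2/3 (-1.01, limma adjusted p = 0.558), whereas Fosl2 was at 20 and 38 CPM and at 50 and 66 CPM (1.03, limma adjusted p = 0.283).

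The remaining lists also held 0 members past the threshold. Effector T helper genes (11 tested) had a median of 0.07, with Il18r1, a receptor subunit for IL-18, at 94 and 87 CPM in sgSmad2 and at 45 and 66 CPM in sgSmad2/3 (-0.72, limma adjusted p = 0.367). Integrated stress response genes (19) had a median of 0.27, between 0.06 and 0.30 over the pairs of libraries. The p53 targets (22) had a median of 0.24, between -0.08 and 0.42. Each list had 1 member higher (3.39% of all genes tested) and 0 lower (3.66% of all) at an unadjusted p under 0.05. These were Slc3a2, a subunit of amino acid transporters, at 85 and 159 CPM against 189 and 166 CPM (0.60, limma adjusted p = 0.604), and the DNA polymerase gene Polk at 20 and 22 CPM against 31 and 34 CPM (0.61, limma adjusted p = 0.659), sgSmad2 first. Medians were 0.07 for hypoxia response (18 genes), -0.05 for chemokine receptors and integrins (20), -0.12 for the Myc network and ribosome biogenesis (30), -0.02 for MHC class I presentation (17), 0.02 for DNA methylation and chromatin (22) and 0.01 for the mitochondrial genome (7).

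Whether the Smad3 guide acts alike with and without the Smad2 guide was put to a test of the difference between sgSmad2/3 minus sgSmad2 and sgSmad3 minus no guide, which share no library. No gene passed by limma (0%), nor by voom weights. At an unadjusted p under 0.05 there were 292 genes (2.86%), where chance alone would give 510 if the libraries varied independently. All 10 genes above had the same sign in sgSmad3 against no guide. Of the 720 genes with an unadjusted p under 0.05 in sgSmad2/3 against sgSmad2, 584 (81.1%) had the same sign there, against 62.8% of all genes. Across the 10208 genes, which are not independent and share their libraries, r was 0.32. The subtracted groups, no guide and sgSmad2, deviated together by replicate number (correlation 0.27). The 2 comparisons are therefore not fully separate, and this can raise the shared signs and r. In the test of the difference these 2 groups have opposite signs. Deviations they share cancel there, so its p can come out too large. That no gene passed does not show that the 2 effects are alike.

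**Figure D4:**
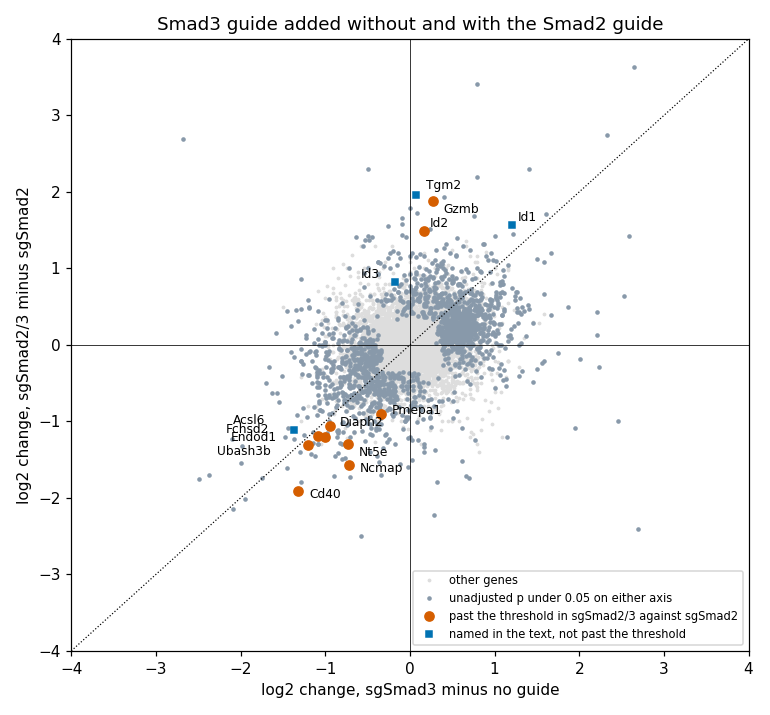
Log2 difference of the Smad3 guide added to the Smad2 guide (y axis, sgSmad2/3 minus sgSmad2) against that of the Smad3 guide alone (x axis, sgSmad3 minus no guide), 1 point per gene, with a dotted line of equal values. Diaph2 and Fchsd2 lie near the line, while Id2 and Gzmb lie near 0 on the x axis.

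In sgSmad3 against no guide 10 genes passed (0.098%), and Diaph2 and Fchsd2 were the 2 that passed in both comparisons: sgSmad3 minus no guide was -0.95 for Diaph2 and -1.09 for Fchsd2 (limma adjusted p = 0.0288 for each). For Diaph2 the difference between the 2 effects was -0.11, with a 95% interval of -0.59 to 0.37, and for Fchsd2 it was -0.10, from -0.66 to 0.45. For Acsl6, which fell in sgSmad3 against no guide by 1.37 on the log2 scale (limma adjusted p = 0.0288), the difference was 0.26, from -0.39 to 0.91. These intervals leave room for differences of some size in either direction. The effects of Cd40 were -1.90 with and -1.32 without the Smad2 guide (difference -0.58, from -1.38 to 0.21). The difference was -0.56 for Pmepa1 (from -1.01 to -0.11) and -0.84 for Ncmap (from -1.61 to -0.07). Neither passed after adjustment (limma unadjusted p = 0.0175 and 0.0334). For Ubash3b, Nt5e and Endod1 the interval included no difference. The genes that passed in sgSmad2/3 against sgSmad2 were chosen by 1 of the 2 effects, which can enlarge that effect.

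Id2 had the smallest p of the test of the difference. Its effect was 1.49 with the Smad2 guide and 0.16 without, a difference of 1.32 (SE 0.219, from 0.86 to 1.79). This difference did not pass after adjustment (limma unadjusted p = 1.8e-05, limma adjusted p = 0.187). For Gzmb the effects were 1.88 and 0.27, a difference of 1.61 (from 0.70 to 2.52, unadjusted p = 0.00174, limma adjusted p = 1). The other 4 of the 5 smallest p values belonged to Pou5f2, Nrn1, Tnnc2 and Tnfaip8l1, each with a limma adjusted p of 1. Pou5f2, a POU transcription factor gene, was at 19 and 12 CPM in sgSmad2, 2 and 3 CPM in sgSmad2/3, 10 and 7 CPM with no guide and 12 and 9 CPM in sgSmad3.

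TGF-beta responsive genes were taken from a separate experiment of the series, in which Treg cultures were compared with Th0 cultures, which received IL-2 without TGF-beta (3 libraries each). There 233 genes were higher and 177 lower in Treg by 2-fold or more at a limma adjusted p under 0.05, and 197 and 121 of them could be tested here. All 8 genes that fell with the Smad3 guide were among the 197, and both genes that rose were among the 121. Gzmb averaged 16.1 CPM in Treg and 499 CPM in Th0 cultures, and Id2 283 CPM and 796 CPM. Cd40 averaged 38.9 CPM in Treg and 0.778 CPM in Th0 cultures.

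Of the 197 genes higher in Treg, 8 fell (0.0784% of all genes tested) and 0 rose (0.0196% of all), and 81 were lower (3.66% of all) and 0 higher (3.39% of all) at an unadjusted p under 0.05. The sign was negative for 173 of them, against 4772 of 10208 over all genes tested, and the median log2 difference was -0.48, between -0.53 and -0.37 over the pairs of libraries. Of the 121 genes lower in Treg, 2 rose and 0 fell, and 26 were higher and 3 lower at an unadjusted p under 0.05. The median was 0.24 (0.28 to 0.32 over the pairs of libraries), and 90 of the 121 were above 0, against 5380 of 10208 over all genes tested. In sgSmad3 against no guide, which shares no library with this comparison, the medians of the 2 lists were -0.35 and 0.21. The no-guide and sgSmad2 libraries deviated together (correlation 0.27), so these medians are not fully separate from those above.

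**Figure D5:**
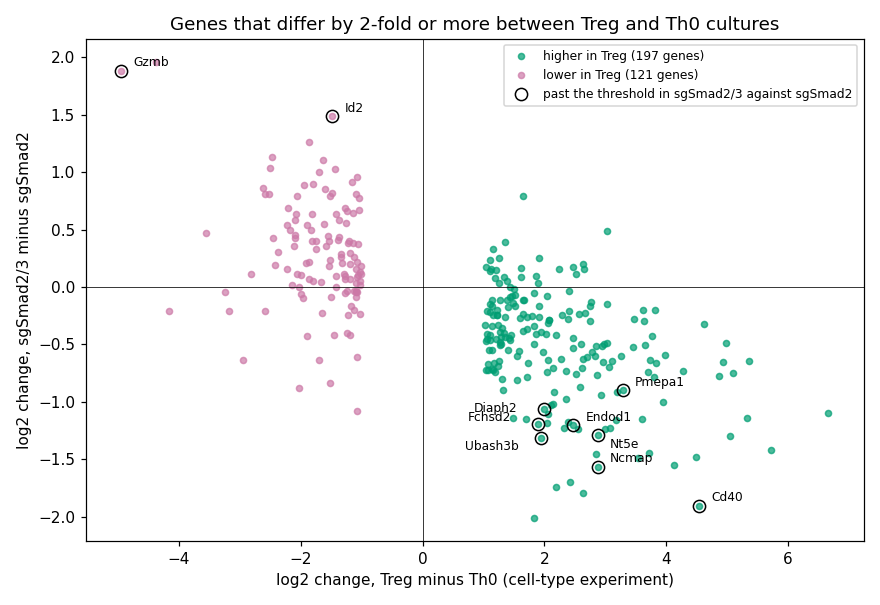
Log2 difference of sgSmad2/3 minus sgSmad2 (y axis) against log2 difference of Treg minus Th0 in the separate cell-type experiment (x axis) for the 318 genes that differ by 2-fold or more between Treg and Th0. Genes higher in Treg lie mostly below 0 on the y axis and those lower in Treg mostly above, and the 10 genes that passed are ringed.

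Over the 318 genes in the plot against Treg and Th0 cultures, r was -0.69, which the choice of 2 opposite lists enlarges, and over the 10157 genes in both tables it was -0.27. The values share no library, and genes are not independent replicates.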

How the data were processed

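Treg libraries of the guide experiment were analysed with the Treg and Th0 libraries of the cell-type experiment. Subread 2.0.1, STAR 2.7.9a and mm10 are named in the submitters' processing notes; the sources used here do not give the annotation or strand setting. The deposited Smad table is named TPM, but its values are a score, CPM that the authors rounded to whole numbers: its unnamed last line equals the worth of 1 read, was not treated as a gene, and gave the depths. The plan had taken it for TPM, and the test was kept. The deposited cell-type table held CPM with 100.0% of values at whole reads (tolerance 0.01).

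limma 3.58.1 (R 4.3.3) was fitted with an intensity trend to log2(CPM + 1) of the 8 Smad libraries, 1 mean per group, over 10208 genes at 5 or more in at least 2 of 4 libraries, two-sided, with Benjamini-Hochberg adjustment. The scripts were tested on simulated data. Treg and Th0 libraries (genes at 1 CPM or more in 3 libraries, 14165) were fitted likewise, giving 770 genes past the threshold, and 1066 by edgeR 4.0.16 on the recovered reads. Symbols were matched for 55154 of 55421 IDs. The members, the gene lists and the tests were chosen with earlier results of these data known.

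Named genes were Smad2, Smad3, Foxp3, Acsl6 and Acsbg1, all established genes past the threshold whose groups did not overlap (at most 15 in each direction), the 10 smallest p in a direction with fewer than 5 such genes, members of the lists past the threshold or with the smallest p, and the 5 smallest p of the test of the difference. The ATAC libraries and the Acsbg1 experiment were not analysed here.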

Additional observations from a re-analysis of the deposited data

How the results depend on the processing

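The count of 10 genes past the threshold was between 10 and 15 with pseudocounts of 0.5 and 5, a minimum of 10, quantile or median ratio scaling, and column sums without Gm42418, and all 10 genes were called again in each of these. With voom weights, added after seeing the data, it was 10, of which 9 were shared. The count was 0 with genes at 1 or more in 2 of 8 libraries, 0 with no filter, 0 with no trend and 0 when only the 4 libraries were fitted. Leaving out 1 library at a time gave between 0 and 6 genes, with the lone sample of an arm assumed to vary like the other groups. The causes were not tested.

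Same-numbered libraries were not paired by the labels, and their deviations correlated at 0.27 for no guide with sgSmad2 and at 0.021 to 0.047 for the other pairs of groups. A fit with the replicate number as a block called 28 genes, 6 higher and 22 lower, including all 10, and 0 for the difference between the 2 effects, which was 0 under every alternative run.

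The median of the genes lower in Treg than Th0 was 0.20 with a pseudocount of 5, 0.27 with a minimum of 10, 0.27 with voom weights, and between 0.24 and 0.31 with 1 library left out. Signs turned, with 1 library left out, for these genes that had not passed: Smad2 (from -0.616 to 0.327), Il2ra (from -0.135 to 0.076), Smad4 (from -0.156 to 0.313), Ighm (from -0.333 to 0.179), Tcrg-C2 (from -0.427 to 0.035) and mt-Nd6 (from -0.678 to 0.022). Depth limits the genes near 5 CPM, where 1 read is worth 0.661 to 0.763 CPM.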
